A study of Homo sapiens with 3 samples.

Results

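The regions described here are all MYC-bound regions listed on human chromosome 4, taken by chromosome name from a peak list of untreated cells and a peak list of cells given MST-312. They number 2425 of the 58992 regions listed in all, with 1191 of 31378 in the untreated list (3.80%) and 1234 of 27614 in the MST-312 list (4.47%). The regions were chosen by chromosome, and the chromosome was selected on its region counts and its share of regions common to the lists, with earlier results of these data known. Those counts and shares are therefore a description and carry no test. MYC occupancy was measured by chromatin immunoprecipitation and single-read sequencing (ChIP-seq) in P493, an established human B cell line whose MYC transgene can be switched off. Chromatin was precipitated with the MYC antibody N262 from cells with no treatment and from cells treated with MST-312, a synthetic telomerase inhibitor, and input chromatin of cells with no treatment served as the control for either list. No dose or time of MST-312 treatment is given in the sources used here. Each condition is 1 library of 1 cell line, so values from the lists stand side by side, with no replicates and no test of the treatment.

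MYC is a transcription factor that binds DNA as a pair with MAX, most strongly at E-box motifs, and it gathers at the active promoters and enhancers of growth genes. In cells with much MYC it also occupies weaker sites, so a list of bound regions can hold a long tail of low signals. Whether the weak regions listed here are such sites was not tested. Chromosome 4 is known as one of the most gene-poor and AT-rich human chromosomes, with the distal end of its short arm as a gene-rich exception. No hg19 gene annotation or sequence was used here, so the regions are named by their hg19 coordinates and not by genes, promoters or motifs.

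The untreated library kept 60805153 tags after limiting duplicates (75.5% of its total) and the MST-312 library kept 55400354 (50.9%). MACS gave redundant rates of 0.24 (untreated) and 0.49 (MST-312), and the part of this difference in the results below was not tested. Weak regions end at a listing level that the headers do not state, with a lowest −log10 q of 13.01 and 13.02. A region missing from a list may therefore still carry signal below that level. Precipitation efficiency, library complexity and MYC occupancy cannot be told apart with 1 library per condition. Ranges in parentheses after a share are 95% intervals (Clopper-Pearson, exact) for counting error over regions, and not for the spread between libraries.

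Chromosome 4 carried few MYC regions for its length. Over the 191 Mb between the outermost listed positions, the untreated list held 6.24 regions per Mb and the MST-312 list 6.46. Both densities ranked 2nd lowest among chromosomes 1 to 22 and X, above chromosome X (5.47 and 4.79 per Mb) and far below chromosome 19 (32.0 and 24.1). The median of the other 22 chromosomes was 10.996 untreated and 9.45 MST-312 regions per Mb. The untreated regions of chromosome 4 covered 935 kb and the MST-312 regions 794 kb, so the MST-312 list had more regions but less covered sequence. The excess in number depended on weak regions. At a −log10 q of at least 26 the untreated list held 536 regions on chromosome 4 and the MST-312 list 403.

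The regions lay most densely at the start of the short arm. Chromosome 4 was divided into 20 bins of 10 Mb by summit position, numbered from the short-arm end, with the last bin cut short by the end of the chromosome. Bin 1 (0 to 10 Mb) held 178 untreated and 164 MST-312 regions, 14.9% and 13.3% of the chromosome's regions. Within it, the window from 2 to 3 Mb held 39 untreated and 32 MST-312 regions, and the window from 0 to 1 Mb held 32 and 33. The fullest bins after it in the untreated list were bin 9 (80 to 90 Mb) with 88 untreated and 79 MST-312 regions and bin 4 (30 to 40 Mb) with 78 and 66. In the MST-312 list bin 15 (140 to 150 Mb) came next after bin 1, with 85 regions against 73 untreated ones. The emptiest full bin was bin 14 (130 to 140 Mb), with 20 untreated and 34 MST-312 regions, followed in the untreated list by bin 10 (90 to 100 Mb) with 31 and 52 and bin 7 (60 to 70 Mb) with 33 and 45. The last bin held 7 untreated and 10 MST-312 regions.

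**Figure D1:**
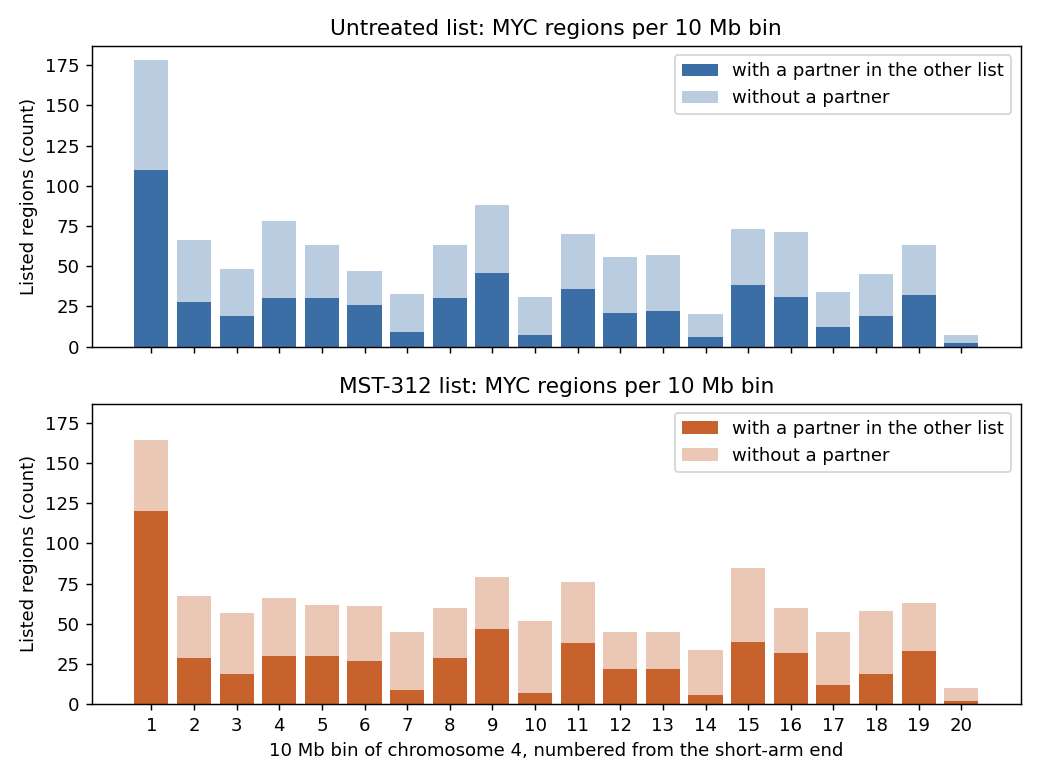
Number of listed MYC regions (vertical axis, count) in each 10 Mb bin of chromosome 4 (horizontal axis, bin number from the short-arm end) in the untreated list (top) and the MST-312 list (bottom); dark bars are regions with a partner in the other list and pale bars those without. Bin 1 stands highest in both lists, with 178 untreated and 164 MST-312 regions, and the pale bars of the MST-312 list stay between 23 and 46 in the 19 full bins.

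MST-312 regions outnumbered untreated regions in 11 of the 20 bins, were fewer in 8 and equal in 1. The bins with more MST-312 regions were 2, 3, 6, 7, 10, 11, 14, 15, 17, 18 and 20, and they held 590 MST-312 and 474 untreated regions together. The bins with fewer were 1, 4, 5, 8, 9, 12, 13 and 16, with 581 and 654. The widest difference towards MST-312 was in bin 10, with 52 against 31 regions, and the widest towards untreated cells in bin 1, with 164 against 178. Among regions with −log10 q of at least 26, no bin held more MST-312 than untreated regions and 19 of the 20 held fewer. With lists of equal length, which keep the strongest 27614 regions of each, the chromosome held 1018 untreated and 1234 MST-312 regions, and 17 of the 20 bins held more MST-312 regions.

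A part of the chromosome 4 regions was called in both libraries. A partner was a region of the other list that overlapped by 1 bp or more. Of the 1191 untreated regions 554 had an MST-312 partner, which is 46.5% (43.7 to 49.4), against 53.6% over the whole untreated list. Of the 1234 MST-312 regions 572 had an untreated partner, which is 46.4% (43.5 to 49.2), against 63.3% over the whole MST-312 list. Both shares depend on which regions are kept. They were 52.4% and 44.8% with lists of equal length, 50.2% and 47.6% with a gap of 1 kb allowed, and 63.6% and 85.9% with −log10 q of 26 or more in both lists. The 637 untreated and 662 MST-312 regions without a partner made up 53.5% and 53.6% of the chromosome's regions, against 46.4% and 36.7% over the whole lists. Chromosome 3, which is close in length, had 52.8% (50.5 to 55.1) of untreated and 59.0% (56.6 to 61.3) of MST-312 regions with a partner. Chromosome 5 had 51.3% (48.7 to 53.8) and 54.8% (52.2 to 57.3). Chromosome 13 was closest to chromosome 4, with 46.6% (42.8 to 50.3) and 49.6% (45.8 to 53.4).

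The number of MST-312 regions without a partner was ordinary on chromosome 4, and the number with one was low. MST-312 regions without an untreated partner occurred at 3.47 per Mb, 7th lowest of 23 chromosomes and near the median of the other 22 (3.67 per Mb). MST-312 regions with a partner occurred at 2.99 per Mb, 2nd lowest, against a median of 6.06 per Mb on the others. Across the 23 chromosomes the density of MST-312 regions with a partner spanned 8.40-fold, from 2.39 per Mb on chromosome X to 20.1 on chromosome 19. The density without a partner spanned 2.30-fold, from 2.05 per Mb on chromosome 6 to 4.70 on chromosome 20. Untreated regions without a partner were less even, from 3.11 per Mb on chromosome 6 to 13.2 on chromosome 19, with 3.33 on chromosome 4.

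**Figure D2:**
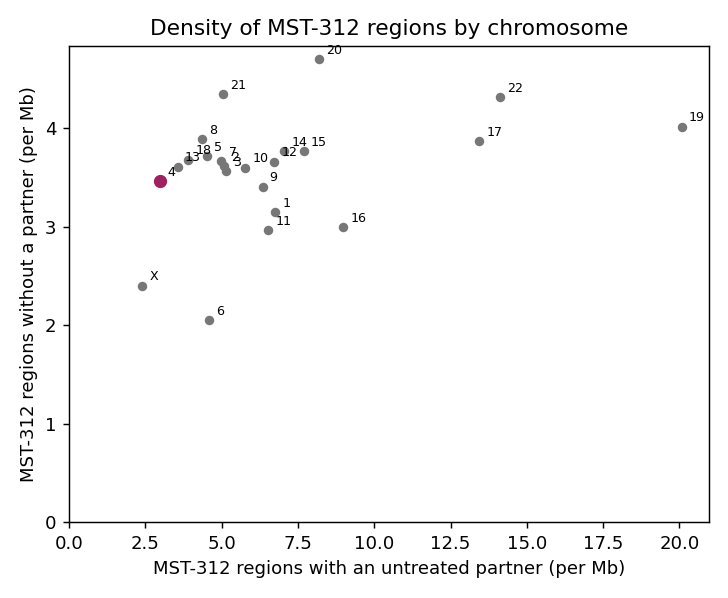
Density of MST-312 regions without an untreated partner (vertical axis, regions per Mb) against density with one (horizontal axis, regions per Mb) on chromosomes 1 to 22 and X, each point 1 chromosome and chromosome 4 in dark red. The points spread from 2.39 to 20.1 per Mb along the horizontal axis and from 2.05 to 4.70 per Mb along the vertical one, and chromosome 4 lies at 2.99 and 3.47.

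The same contrast ran along the chromosome itself. Over the 19 full bins, the number of MST-312 regions without a partner was 34.4 ± 6.63 per bin (SD over bins), from 23 in bins 12 and 13 to 46 in bin 15. The number with a partner was 30.0 ± 24.5 per bin, from 6 in bin 14 to 120 in bin 1. Untreated regions without a partner varied more than the MST-312 ones, at 33.3 ± 11.7 per bin, from 14 in bin 14 to 68 in bin 1. MST-312 regions without a partner were thus spread thinly over the whole chromosome. Those with a partner also lay in every full bin, most of all in bin 1, with 6 to 47 in each of the other full bins.

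By share, the regions called only after MST-312 gathered where untreated regions were few. They formed 86.5% (74.2 to 94.4) of the MST-312 regions in bin 10, 82.4% (65.5 to 93.2) in bin 14, 80.0% (65.4 to 90.4) in bin 7 and 73.3% (58.1 to 85.4) in bin 17. They formed 26.8% (20.2 to 34.3) in bin 1 and 40.5% (29.6 to 52.1) in bin 9, and between 46.7% and 67.2% in the other full bins. In the 5 full bins with the fewest untreated regions (7, 10, 14, 17 and 18), 181 of 234 MST-312 regions had no partner, or 77.4% (71.4 to 82.5). In the 5 with the most (1, 4, 9, 15 and 16) it was 186 of 454, or 41.0% (36.4 to 45.6). Bins with few untreated regions offer fewer partners, so this split is a description of position and not a measure of change. Untreated regions of the sparse bins also lacked partners more often in value, with 67.5% (59.7 to 74.6) without one against 47.7% (43.2 to 52.3) in the dense bins. In numbers the sparse bins held 181 MST-312 and 110 untreated regions without a partner, and the dense bins 186 and 233. The bins were ranked by their untreated regions, which include those without a partner. The low and high untreated numbers thus follow in part from that choice, and no difference between the lists is read from them.

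**Figure D3:**
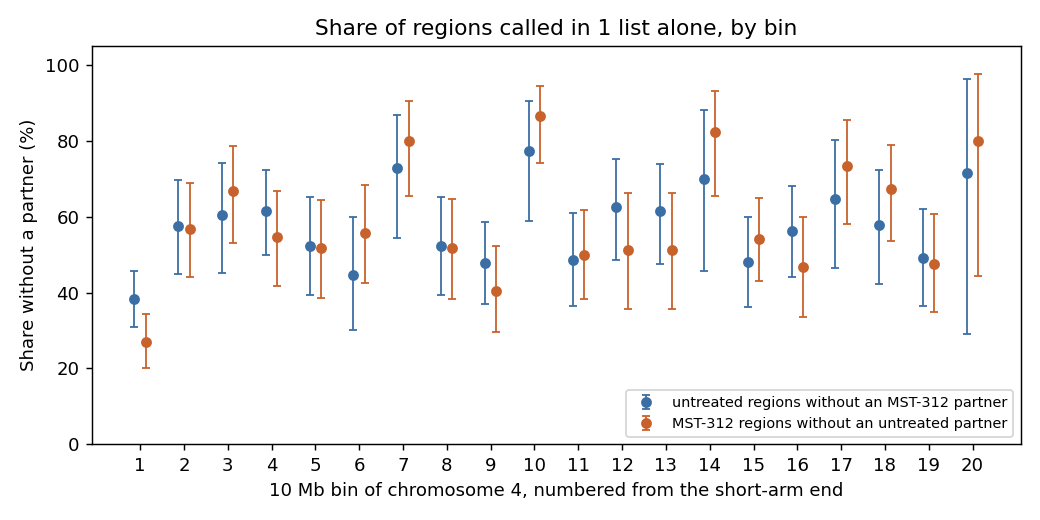
Share of regions without a partner in the other list (vertical axis, percent) by 10 Mb bin of chromosome 4 (horizontal axis, bin number), for untreated regions (blue) and MST-312 regions (orange), with bars for exact 95% intervals over regions. The MST-312 share is lowest in bin 1 at 26.8% and highest in bin 10 at 86.5%, and the intervals of both lists overlap in all 20 bins.

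By number, the bins with the most MST-312 regions without a partner were bin 15 with 46, bin 10 with 45 and bin 1 with 44. Bin 15 is a dense bin, and its window from 140 to 141 Mb held 9 such regions among 19 MST-312 and 17 untreated regions. The window from 148 to 149 Mb in the same bin held 9 among 11 MST-312 regions, beside 5 untreated ones. A further window with 9, from 171 to 172 Mb in bin 18, had no shared region at all, with 9 MST-312 and 3 untreated regions that nowhere met. The windows from 59 to 60 Mb and from 97 to 98 Mb held 8 MST-312 regions each and no untreated region. In all, 10 of the 192 windows of 1 Mb held MST-312 regions and no untreated one (45 regions), and 4 held untreated regions and no MST-312 one (6 regions). The bins with the most untreated regions without a partner were bin 1 with 68, bin 4 with 48 and bin 9 with 42, and the window from 2 to 3 Mb alone held 16.

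MST-312 regions without a partner followed each other in longer runs than untreated ones. A run was counted as neighbouring regions of 1 list, none with a partner and with no region of the other list between them. The longest run had 11 MST-312 regions at chr4:58556911-59813977 in bin 6, with widths from 213 to 769 bp and pileups of 28 to 50 fragments (median 30). Pileup is the number of extended fragments stacked at the summit. All 11 lay in an untreated gap of 2423 kb, the 2nd longest of the untreated list, between regions ending at 58030757 and starting at 60453378. The next runs had 10 MST-312 regions each, at chr4:97056075-98061886 in bin 10 (pileups 28 to 41) and at chr4:20952693-22293355 in bin 3 (pileups 29 to 40). These runs are long in span and low in signal, with a median −log10 q of 15.1, 14.8 and 15.1, close to the listing level.

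The longest runs of untreated regions had fewer members. They had 6 regions each, at chr4:124246577-124385422 in bin 13 (139 kb, pileups 37 to 72) and at chr4:154442685-154650470 in bin 16 (208 kb, pileups 32 to 96). The most compact of the runs of 5 lay at chr4:87860871-87918539 in bin 9, within 57.7 kb, with pileups from 31 to 49. Runs of at least 3 held 319 of the 662 MST-312 regions without a partner and 169 of the 637 untreated ones, and runs of at least 5 held 142 and 47. Spans overlapped between the lists. An untreated run of 5 at chr4:60989277-61371547 spanned 382 kb, more than an MST-312 run of 7 at chr4:148701313-148979282 in bin 15, and both are named after their values were seen. The MST-312 run spanned 278 kb, with pileups from 30 to 53 (median 41) and a median −log10 q of 19.3.

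Spacing between neighbouring regions differed in its middle and in its tail. The median gap on chromosome 4 was 63.2 kb in the untreated list (quartiles 16.6 and 175) and 86.7 kb in the MST-312 list (26.8 and 194). On the other chromosomes together the medians were 24.9 and 39.6 kb. Close neighbours were fewer after MST-312, with 232 of 1190 gaps under 10 kb in the untreated list (19.5%) and 178 of 1233 in the MST-312 list (14.4%). The other chromosomes went the same way, with 32.2% and 25.1%. Very long gaps were also fewer, with 24 untreated (2.02%) and 8 MST-312 gaps (0.649%) over 1 Mb. Elsewhere they numbered 271 (0.898%) and 130 (0.493%). Of the 24 long untreated gaps of chromosome 4, 21 held MST-312 regions, 109 in all. Of its 8 long MST-312 gaps 7 held untreated regions, 18 in all.

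The longest gap was shared, from 49497415 to 52708691 in the untreated list (3211 kb) and from 49497303 to 52708982 in the MST-312 list (3212 kb), and it spans the unsequenced centromere of this build. The untreated gap from 179375499 to 181181345 (1806 kb) held 7 MST-312 regions with pileups of 29 to 46. The MST-312 gaps from 131494745 to 134011647 (2517 kb) and from 137585493 to 139035638 (1450 kb) held 3 and 2 untreated regions, with pileups of 31 to 34 and of 29 to 37. At the other extreme, the closest untreated neighbours lay 37, 38 and 43 bp apart, after positions 3076766, 146859567 and 39045854. The closest MST-312 neighbours lay 39, 40 and 45 bp apart, after 8201380, 58030165 and 2934057. The MST-312 pair after 58030165 lies inside a single untreated region of 1242 bp at chr4:58029516-58030757.

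Regions without a partner were narrow and low in both lists, as they were on the other chromosomes. Untreated regions with a partner were 1030 bp long in the median, with a pileup of 101 fragments (quartiles 65.3 and 155), against 401 bp and 37 fragments (33 and 47) without one. MST-312 regions with a partner were 812 bp long, with 71 fragments (48 and 95), against 360 bp and 33 fragments (30 and 37) without one. Elsewhere the median lengths with and without a partner were 1026 and 441 bp untreated and 774 and 369 bp after MST-312. On chromosome 4, pileups of at least 100 fragments occurred in 279 untreated regions with a partner and 2 without. They occurred in 131 MST-312 regions with a partner and none without. The other chromosomes together had 8150 with and 316 without among untreated regions, and 3852 and 10 among MST-312 regions. Broad regions of chromosome 4, of 2000 bp or more, numbered 62 untreated, of which 61 had a partner, and 29 MST-312, all with a partner. Elsewhere 1516 of 1545 broad untreated regions and all 514 broad MST-312 regions had a partner. Most MST-312 regions of chromosome 4 without a partner (61.9%) were under a −log10 q of 16, and 33 (4.98%) reached 26. Of the untreated ones, 48.2% were under 16 and 85 (13.3%) reached 26. Among regions without a partner elsewhere, 5.31% of MST-312 and 21.2% of untreated ones reached 26.

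The few stronger regions without a partner were also scattered. The 85 untreated ones lay in 17 of the 20 bins, with 15 in bin 1 and 10 in bin 16. The 33 MST-312 ones also lay in 17 bins, with 6 in bin 8 (70 to 80 Mb) and at most 3 in any other. Of the bins where the share without a partner was highest, bins 10 and 7 held none of the 33 and bins 14 and 17 held 1 each. Over the whole chromosome 4.98% of MST-312 regions without a partner were this strong, so numbers per bin are small. The median pileup of MST-312 regions without a partner ranged from 30 to 37.5 fragments over the full bins. Most of these regions lie just above the listing level, which keeps such medians close together. In the 1 Mb window from 3 to 4 Mb the median of 6 such regions was 50 fragments and the highest 80. Over the whole chromosome single regions reached 84.

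Local background moved with these positions. It was back-calculated from the authors' pileup and fold enrichment as (pileup + 1) / fold enrichment − 1, and its lowest possible value in the MST-312 list, 3.58 fragments, equals its kept tags times the fragment length over the genome size. Of the MST-312 regions of chromosome 4 without a partner 174 (26.3%) were at that floor, against 3 (0.524%) of those with a partner. The untreated list went the same way at its own floor of 3.93 fragments, with 96 (15.1%) without a partner and 4 (0.722%) with one. The floor took in 31.6% of MST-312 regions in the 5 sparse bins and 6.39% in the 5 dense bins, where the median background was 4.22 and 6.41 fragments. Over the whole chromosome 14.3% of MST-312 regions were at the floor, against 6.55% on the other chromosomes. For untreated regions these shares were 8.40% and 4.03%. Chromosome 13 was near chromosome 4, with 12.4% of MST-312 and 5.89% of untreated regions at the floor. A lower background lets a lower pileup reach the same −log10 q. The part of this in the calls without a partner was not tested.

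At like strength, MST-312 regions of chromosome 4 under a −log10 q of 50 had lower shares with a partner than those of the other chromosomes together, and untreated regions lay on either side. In the weakest MST-312 class (−log10 q from 13 to 16), 63 of 473 regions had a partner, or 13.3% (10.4 to 16.7), against 24.9% (23.9 to 25.9) elsewhere. From 16 to 20 the shares were 28.2% (22.4 to 34.5) and 45.3% (43.9 to 46.8), and from 20 to 26 they were 57.3% (48.3 to 65.9) and 71.1% (69.6 to 72.6). From 26 to 50 they were 84.5% (78.9 to 89.2) and 91.8% (91.1 to 92.5), and from 50 upward nearly every region had a partner in both. In the untreated list the share was 10.8% (7.69 to 14.5) against 12.02% (11.2 to 12.8) in the weakest class, 15.5% (10.7 to 21.3) against 21.5% (20.2 to 22.8) from 16 to 20 and 30.8% (22.6 to 39.97) against 35.2% (33.6 to 36.9) from 20 to 26. It was 61.1% (53.9 to 67.9) against 60.9% (59.7 to 62.1) from 26 to 50, and higher on chromosome 4 from 50 to 100, at 94.9% (90.1 to 97.8) against 90.2% (89.3 to 91.0).

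The 4 chromosomes set beside it had higher values in the weakest MST-312 class. The share with a partner was 16.7% (12.3 to 21.9) on chromosome 13, 20.2% (16.7 to 24.0) on chromosome 5, 21.5% (18.01 to 25.2) on chromosome 3 and 48.5% (42.3 to 54.7) on chromosome 19. Chromosome 13 lay near chromosome 4 in the next classes. Its shares were 33.3% (25.5 to 42.0) from 16 to 20, 56.8% (44.7 to 68.2) from 20 to 26 and 87.5% (79.9 to 93.0) from 26 to 50. Those of chromosome 4 were 28.2%, 57.3% and 84.5%. The low share on chromosome 4 entered the choice of this chromosome, so these values are a description only. Weak regions also took a larger part of the list on chromosome 4 than on the other chromosomes together. The weakest class held 38.3% against 28.0% of MST-312 regions, and 28.9% against 20.9% of untreated regions. Chromosome 13 was near chromosome 4 here too, with 36.6% and 27.2%. The values were 33.4% and 23.2% on chromosome 5, 30.4% and 23.6% on chromosome 3 and 18.8% and 13.4% on chromosome 19.

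**Figure D4:**
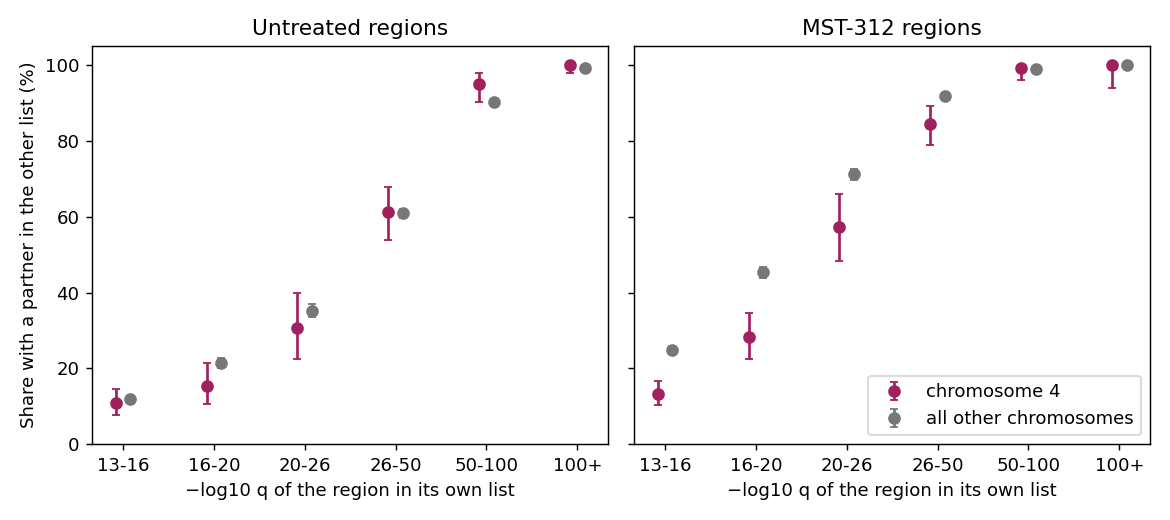
Share of regions with a partner in the other list (vertical axis, percent) by −log10 q of the region in its own list (horizontal axis, 6 classes), for chromosome 4 (dark red) and all other chromosomes together (grey), with exact 95% intervals; untreated regions left, MST-312 regions right. In the weakest class the MST-312 share is 13.3% on chromosome 4 and 24.9% elsewhere, while the untreated shares are 10.8% and 12.02%.

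In regions that both lists shared, the MST-312 pileup was mostly the lower of the pair. On chromosome 4 498 pairs joined 1 untreated and 1 MST-312 region that overlapped no others. In these the pileup had a median of 101 fragments untreated (quartiles 66 and 155) and of 72.5 after MST-312 (48.3 and 96), and their median length 992 and 802 bp. The MST-312 pileup was lower in 425 pairs (85.3%), higher in 68 and equal in 5, while the MST-312 library kept fewer tags. On the other chromosomes it was lower in 85.7% of pairs, with medians of 99 and 67 fragments, so shared regions of chromosome 4 looked like shared regions elsewhere. The median distance between the summits of a pair was 48.5 bp, and 73.1% of pairs had them within 100 bp.

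The median of the MST-312 pileups was below the median of the untreated ones in all 20 bins. Single pairs did not all keep this order. In bin 1 the medians of 94 pairs were 90.5 and 72 fragments, and 18 of these pairs had the higher pileup after MST-312. In bin 10 all 7 pairs were lower after MST-312, with medians of 216 and 113 fragments. In bin 7, with 9 pairs, 4 were higher after MST-312, and the medians were 57 and 54. The largest rises in pileup, named after their values were seen, were at chr4:54568462-54569423 (134 fragments untreated and 179 after MST-312), chr4:113282398-113282863 (66 and 109) and chr4:26374359-26374696 (95 and 128).

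**Figure D5:**
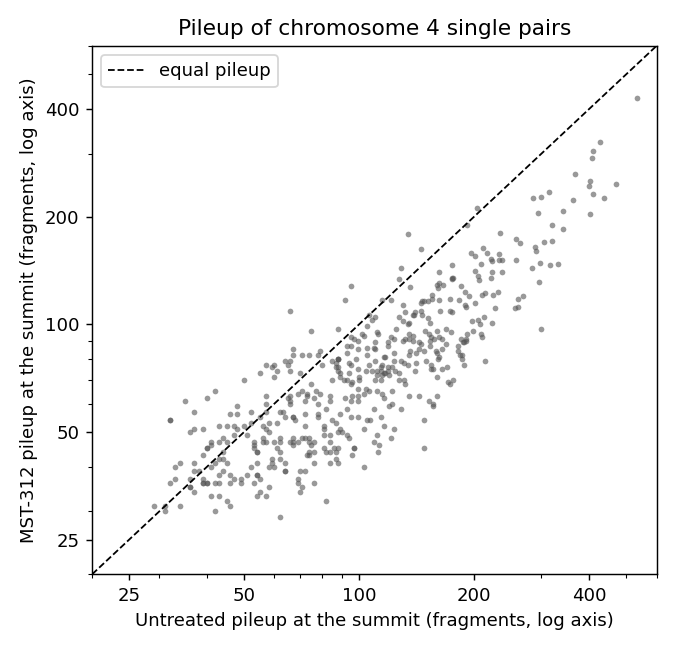
Summit pileup in the MST-312 list (vertical axis, fragments, log scale) against that in the untreated list (horizontal axis, fragments, log scale) for the 498 single pairs of chromosome 4, each point 1 pair, with a dashed line at equal pileup. Most points lie under the line, as 425 pairs had the lower pileup after MST-312.

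The strongest MYC regions of chromosome 4 were called in both lists at nearly the same place. By fold enrichment over the local background, as the authors' lists give it, the leading untreated region was chr4:164414828-164416485, with 470 fragments (fold enrichment 54.1). The region that met it after MST-312, at chr4:164415319-164416460, had 247 fragments (fold enrichment 36.5), with the summits 81 bp apart. The 2nd, chr4:57300974-57303589, had 407 fragments (fold enrichment 52.7), and its partner, first in the MST-312 list of this chromosome, had 291 (40.8). At chr4:186124153-186125617 the pileups were 428 and 324 fragments, with fold enrichments of 49.2 and 40.5.

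Lower pileups after MST-312 were also listed for the remaining members of the leading 6. At chr4:166033231-166034596 the pileup was 437 fragments untreated and 225 after MST-312. At chr4:103421892-103423714 it was 320 and 190, and at chr4:89443885-89445292 it was 288 and 164. All 6 had summits within 81 bp of each other and lay in bins 6, 9, 11, 17 and 19, not in the dense bin 1. Bin 17, where 73.3% of MST-312 regions had no partner, thus also held the region with the highest fold enrichment and the one ranked 4th.

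By pileup alone, the highest region of both lists lay near the short-arm end, at chr4:51225-52505, with 533 fragments untreated and 429 after MST-312. Its local background was also high, at 42.4 and 38.7 fragments, so its fold enrichment was 12.3 and 10.8. The next untreated pileups were those of the regions at 164414828 and 166033231. The next in the MST-312 list were 324 fragments at chr4:186124299-186125605 and 306 at chr4:2964367-2965812, whose untreated partner had 410.

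The leading untreated regions without a partner ranked from 218 to 291 by fold enrichment in the untreated list of the chromosome. Their fold enrichments lay above the upper quartile of that list, 9.66. The first, chr4:146112675-146113065, had 61 fragments and a fold enrichment of 12.1. The 2nd, chr4:154073153-154073574 (82 fragments, 11.4), lay 0.048 kb from an MST-312 region and would be paired if small gaps were allowed. The region at chr4:699254-700160 had 96 fragments (11.1), 28.7 kb from the next MST-312 region. The others were chr4:111552870-111553650 (68 fragments), chr4:169075023-169075319 (57) and chr4:111625912-111626275 (55), with an MST-312 region 85.8, 9.50 and 149 kb away.

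The 6 leading MST-312 regions without a partner lay 38.3 to 270 kb from the other list. The 6 leading untreated ones lay 0.048 to 149 kb from it, so the ranges overlapped. The first, chr4:102477944-102478438, had 67 fragments and a fold enrichment of 14.3, ranked 57th in its list, and lay 137 kb from any untreated region. The 2nd, chr4:116936249-116936679, had 61 fragments (12.3) and lay 129 kb away. At chr4:180911232-180911540 (46 fragments, 10.3) and chr4:160613573-160614076 (44, 9.83) the local background was at its floor of 3.58 fragments. The remaining regions were chr4:40842085-40842683 (69 fragments, 9.79) and chr4:159304457-159305038 (45, 9.63). Over all chromosome 4 regions without a partner, the nearest region of the other list was a median of 89.1 kb away for MST-312 regions. For untreated ones it was 38.6 kb. Elsewhere these medians were 40482 and 17230.5 bp. Only 15 of the 662 MST-312 regions of chromosome 4 lay within 1 kb of an untreated one, as did 44 of the 637 untreated regions of an MST-312 one.

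Some regions of untreated cells were met by several MST-312 regions. On chromosome 4, 30 untreated regions had 2 or more MST-312 partners and 15 MST-312 regions had 2 untreated partners. The longest untreated region, chr4:141071387-141075873 (4487 bp, 188 fragments), was met by 3 MST-312 regions of 1608, 1826 and 868 bp, with pileups of 94, 46 and 98 fragments. The others met by 3 were chr4:2536887-2539339 (2453 bp) and chr4:106066754-106069317 (2564 bp). At chr4:15002939-15007105 the 2nd longest untreated region (4167 bp, 169 fragments) stayed whole, with an MST-312 partner of 3907 bp and 97 fragments that was the longest of its list. The outermost regions near the short-arm end were shared, at chr4:28617-29477, with 136 and 127 fragments. At the long-arm end the last untreated region, chr4:190861225-190862558, was also shared (175 and 146 fragments), while the last MST-312 region, chr4:191033499-191033933, had no partner (70 fragments).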

How the data were processed

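The submitters' processing notes name CASAVA 1.8, Bowtie2 2.2.3 and the build hg19. Peaks were called in each MYC library against the input with MACS 2.0.10.20131216, a fragment length of 200 bp, a p cutoff of 0.05, a limit of 3 duplicates per site and local backgrounds of 1000 and 10000 bp, per the file headers. The deposited pileup is an unscaled signal, since both MYC libraries kept fewer tags than the input (63069522) and scaling went from the larger library to the smaller, per the file headers. The authors' fold enrichment is a ratio over local background, read here as having 1 added to the pileup and to the background, since the lowest back-calculated backgrounds (3.93 and 3.58 fragments) then equal the genome-wide averages, and the deposited −log10 p and q values are positive although their column names lack a minus sign. The authors' lists end at a −log10 q of 13.01 and 13.02, under a filter the headers do not state. Coordinates are 1-based, as deposited.

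Rows of chromosome 4 were taken from both lists, assigned to 10 Mb bins by summit and matched by 1 bp of overlap. Distances and gaps count the bases between regions. Exact Clopper-Pearson intervals of shares came from scipy 1.17.1 and hold for counting error only, and tags lack molecular identifiers and so may repeat molecules. Values were computed with Python 3.11.15, numpy 2.4.6 and pandas 2.3.3. The overlap code was tested on simulated data made from 1191 untreated regions of chromosome 4, where found and true shares differed by 0 percentage points, and likewise from the 1533 of chromosome 5 (0) and the 1840 of chromosome 3 (0.0543). Conditions were not tested against each other, since each is 1 library. Named regions are the 6 highest by fold enrichment in each class, the 3 highest by pileup, the 3 leading bins, and the 3 longest runs and the 3 shortest and 3 longest gaps of each list. Outermost, longest and split regions and windows were added after seeing the data. The members, bins and rules were chosen with earlier results of these data known.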

Additional observations from a re-analysis of the deposited data

How the results depend on the processing

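All alternatives were chosen before these files were read but with earlier results of the data known. Of 43 alternative values, 27 were inside the 95% interval of the main share or differed from the main count by less than 1.5 times, and 16 moved. With both lists limited to −log10 q from 26 upward, chromosome 4 held 536 untreated and 403 MST-312 regions, of which 195 and 57 had no partner, the shares with a partner were 63.6% and 85.9%, and 0 bins held more MST-312 than untreated regions. The excess of MST-312 regions thus depends on regions under that threshold. With lists of equal length the share of untreated regions with a partner was 52.4%, and 17 bins held more MST-312 regions. The shares of untreated and MST-312 regions with a partner were 39.0% and 37.6% with at least 50% of both regions shared and 33.4% and 32.3% with summits within 100 bp, and the untreated share was 50.2% with a gap of 1 kb allowed. MST-312 regions outnumbered untreated ones in 23 of 39 bins of 5 Mb and in 7 of 10 bins of 20 Mb, beside 11 of 20 bins of 10 Mb. Both alternative counts are among the 16 that moved, but the number of bins changes with bin size. Leaving out a replicate was not possible with 1 library per condition. No paired analysis was possible because each condition is a single library. Depth enters as kept tags, and signal under the listing level was not seen.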
